A study of Glycine max with 12 samples.

Results

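Leaves of soybean (Glycine max) plants overexpressing GmZF351, a zinc finger gene, are set against leaves of control plants, in the 6 leaf libraries of a series of 12 that also covers roots. The libraries were chosen by their tissue label alone. The OE leaf group holds 3 libraries of transgenic line OE-34, labelled as overexpressing GmZF351, and the WT leaf group holds 3 libraries of the cultivar Jack, the control of the study. All plants were raised in pots and harvested at stage V1, with the first trifoliate leaf fully open. The labels name no treatment, promoter or hour of harvest, and the overexpressor is a single transgenic line, so an effect of the gene and an effect of that line cannot be told apart. Replicates are biological repeats per the labels, with no word on single plants or pools. The p-values of the gene tests reflect how far all 12 libraries, root included, spread within their groups.

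GmZF351 encodes a tandem CCCH zinc finger protein, a class of proteins that bind nucleic acids, and is known in soybean for raising oil in seeds. An expanded leaf devotes much of its messenger RNA to few genes of photosynthesis. Among these are genes of the Rubisco small subunit, part of the enzyme that fixes CO2, of Rubisco activase, which keeps that enzyme open to its substrate, and of the chlorophyll a/b-binding proteins that harvest light.

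The labels were first checked against marker genes. GmZF351 (Glyma.06G290100, chromosome 6, 47897433 to 47899059, minus strand) had 38100, 39884 and 32486 counts in the OE leaf libraries and 1, 0 and 0 in the WT leaf libraries. The ratio was 83800, with a 95% exact counting interval of 15000 to 3310000. As a leaf check, the 4 most abundant named genes below stood at 6515 to 25970 CPM (counts brought to a common library size, with library sizes scaled by TMM, the trimmed mean of M-values) in leaf and at no more than 5.06 CPM in root on average. The nodulation receptor genes NFR5A and NFR5B and the regulator NINA, with 3827, 453 and 862 counts in root, had 0 in all leaf libraries.

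The leaf libraries held 16892076 to 19041634 counts, and 35947 to 36586 genes had at least 1 count. Genotype separated the libraries along the first principal component, which carried 77.3% of the variance among leaf libraries, and the second carried 7.75%. Any pair of replicates of a genotype was further apart than sampling noise allows (chi-square per gene 3.63 to 7.37), so none was treated as a library deposited again. That measure does not show whether they came from separate plants.

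The genotypes differed in how counts were spread over genes. In WT leaf the 100 most abundant genes, ranked by mean share over the 6 libraries, held 25.4%, 25.8% and 26.2% of all counts, from the lowest library to the highest. In OE leaf the same genes held 19.5%, 19.8% and 20.5%. The groups did not overlap, and the means were 25.8% ± 0.42 and 19.9% ± 0.53 (SD, n = 3), a difference of -5.85 percentage points.

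The 10 most abundant genes fell from 8.69% ± 0.34 to 6.83% ± 0.27 of counts, and the 1000 most abundant from 54.7% ± 0.41 to 46.5% ± 0.77 (SD, n = 3). Each of these 3 shares was lower in every OE leaf library than in every WT leaf library. A two-sided exact permutation test over libraries gave p = 0.1 each time, the smallest that 3 against 3 allows, so no share can pass 0.05 here. Counts favour long transcripts. With counts divided by exon length, the 100 most abundant genes held 28.3% ± 0.43 in WT leaf and 23.4% ± 0.56 in OE leaf.

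The same shift appears in the number of genes that carry the library. In WT leaf 707, 661 and 691 genes made up 50% of counts, and in OE leaf it took 1266, 1183 and 1313. The means were 686.3 ± 23 and 1254 ± 66 genes (SD, n = 3), without overlap. For 25% of counts the means were 92.3 ± 3.5 and 157.7 ± 9.1 genes, and for 90% they were 10739.3 ± 88 and 12697.7 ± 140.

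**Figure D1:**
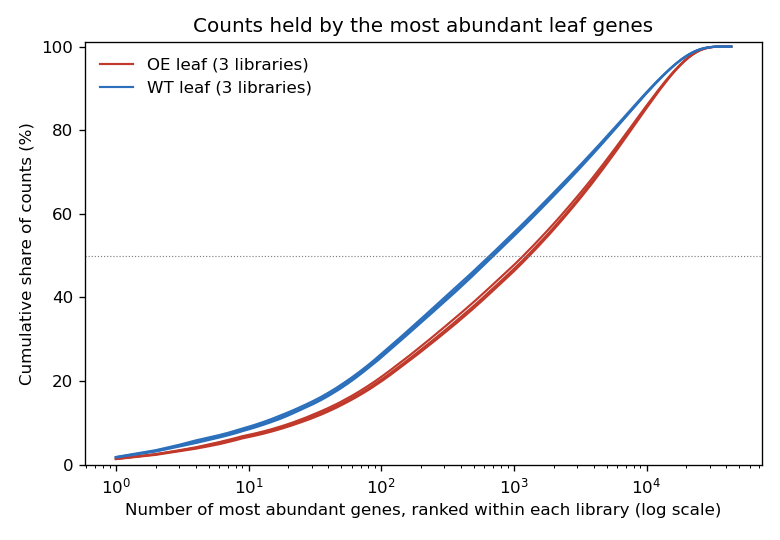
Cumulative share of counts (%) against the number of most abundant genes (log scale), with a line for each of the 3 OE leaf (red) and 3 WT leaf (blue) libraries, each ranked on its own. The red lines run below the blue ones over most of the range, and the dotted line marks 50% of counts, reached at 1183 to 1313 genes by the red lines and 661 to 707 by the blue.

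Between the group means, 17.1% of all counts moved from genes that lost share to genes that gained it. The loss was concentrated and the gain was spread out. It took 112 genes to make 50% of the loss and 1666 to make 50% of the gain. The 10 genes that lost most fell by 2.68 points together, 15.6% of the loss. The 10 that gained most took 1 point, 5.84% of the gain. GmZF351 was the gene that gained most, with 0.201%, 0.209% and 0.192% of the counts of the OE leaf libraries and rank 26 among all genes there. Its own gain was 1.17% of the whole.

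Rubisco and Rubisco activase genes led the loss. RCA11 (Glyma.11G221000, chromosome 11, 31621224 to 31624882), a Rubisco activase gene, was the most abundant gene in both genotypes. It held 1.69%, 1.81% and 1.74% of counts in the WT leaf libraries and 1.35%, 1.38% and 1.3% in the OE leaf libraries. A further activase gene, RCABETA (Glyma.18G036400, chromosome 18, 2855303 to 2859675), lost most of all genes, from 1.53% ± 0.095 to 1.08% ± 0.052 (SD, n = 3). The small subunit genes RBCS1 (Glyma.13G046200, chromosome 13, 14043433 to 14044927) and RBCS2 (Glyma.19G046800, chromosome 19, 7253610 to 7254976) each fell by 0.346 points. The fifth place belonged to Glyma.19G007700, a gene without a matched name, which fell from 0.715% ± 0.014 to 0.464% ± 0.0072. For all 5 genes every OE leaf library lay below every WT leaf library, which their choice by largest loss favours. In CPM the genotypes did not overlap in 47% of all genes tested.

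The light-harvesting genes with a matched name, of like abundance, did not lose share. Other members of that family had no matched name and were not examined. Glyma.08G082900, matched to a chlorophyll a/b-binding protein gene, held 0.539%, 0.547% and 0.572% of counts in WT leaf and 0.641%, 0.68% and 0.578% in OE leaf. CAB3 (Glyma.05G128000, chromosome 5, 32149719 to 32150849), of the same family, went from 0.393% ± 0.021 to 0.48% ± 0.049 (SD, n = 3) and was among the 5 genes that gained most. The others were GmZF351, Glyma.20G150600 (0.126 points), Glyma.14G086300 (0.112 points) and Glyma.17G259500 (0.0923 points). The 10 most abundant genes were completed by Glyma.12G037400, at 0.592% ± 0.018 in WT leaf and 0.446% ± 0.0097 in OE leaf, and Glyma.19G106800, at 0.485% ± 0.011 and 0.277% ± 0.0049. The lists of the 10 most abundant genes of the genotypes shared 8 genes, and those of the 100 most abundant shared 82.

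Divided by length, the order of these genes changed but the falls did not. In TPM, counts per exon length scaled to a common total, RBCS1 led with 20190 ± 575 in WT leaf and 14820 ± 293 in OE leaf. RBCS2 stood at 17250 ± 1880 and 10960 ± 1680 TPM and RCA11 at 15740 ± 382 and 12320 ± 270 TPM. The order of RBCS2 and RCA11 was within the spread of RBCS2 in both genotypes. CAB3 stood at 5768 ± 234 TPM in WT leaf and 7172 ± 691 in OE leaf (SD, n = 3).

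Gene by gene, 14544 of 35968 genes tested (40.4%) differed between OE leaf and WT leaf at an adjusted p under 0.05 in edgeR's quasi-likelihood test with Benjamini-Hochberg adjustment, and these are called changed. They were 6596 higher in OE leaf (18.3%) and 7948 lower (22.1%). The libraries of the genotypes did not overlap in 13589 of them, and in 47% of all genes tested. Of the genes tested, 886 had no count in any leaf library and could not be changed there. Among genes higher in OE leaf the median log2 fold change (log2FC, OE over WT) was 0.67, and among those lower it was -0.74.

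These fold changes are measured against most genes, not against the total count. The TMM factor was at least 0.862 and at most 0.889 for an OE leaf library, and between 0.665 and 0.676 for WT leaf. With libraries scaled by their total counts alone, the median log2FC of all genes tested moved from 0 to 0.38. The split of changed genes then turned from 45.4% higher in OE leaf to 80.1%, with 15977 higher and 3960 lower. A fall smaller than that shift depends on the scaling, and those among the named genes are given with the limits below. In whole leaves, fewer cells of a type and less RNA per cell cannot be told apart.

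Under TMM scaling the direction of change followed abundance. Of the 10 most abundant genes 7 were lower in OE leaf and 0 higher, and of the next 90 genes 82 were lower and 4 higher. Of the 900 genes after those, 70.7% were lower and 11.8% higher, and of the 4000 that follow, 44.4% were lower and 20.3% higher. The next 10000 genes had 25.4% lower and 22.8% higher, and the last 20968 had 13.9% lower and 16.2% higher. Against these stands the background of 22.1% lower and 18.3% higher over all genes tested. The median log2FC went from -0.82 in the first class through -0.78, -0.51, -0.16 and 0.01 to 0.05 in the last. Scaled by total counts, the median of the 100 most abundant genes was -0.40 in place of -0.79, and 75 of them were lower and 9 higher, in place of 89 and 4.

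**Figure D2:**
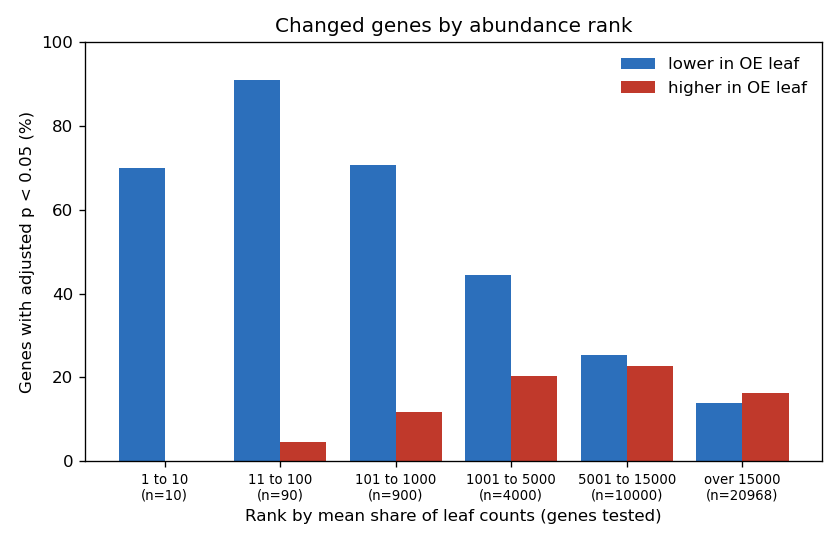
Percentage of genes tested that were lower (blue) or higher (red) in OE leaf at adjusted p under 0.05, by rank of mean share of leaf counts, with the number of genes tested under each class. Lower genes fill 91.1% of ranks 11 to 100 and 13.9% of ranks over 15000.

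The larger the change, the more falls outnumbered rises. At least 2-fold changes numbered 1759 higher and 2670 lower, and at least 4-fold changes 384 and 971. Many of the largest folds belong to genes of few counts, so the sizes were counted again over the 18164 genes tested that reached 10 CPM in a genotype and had a count in both. There 487 genes were at least 2-fold higher and 1269 lower, a ratio of 2.61 lower genes per higher gene. At 4-fold the numbers were 58 and 320, a ratio of 5.52. At 32-fold they were 5 and 44. Total-count scaling turned the balance at 2-fold, to 1490 higher and 667 lower among these genes and to 4503 and 1614 among all genes tested. It left falls in the majority from 4-fold on, with 125 higher and 221 lower at 4-fold and 7 and 38 at 32-fold.

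**Figure D3:**
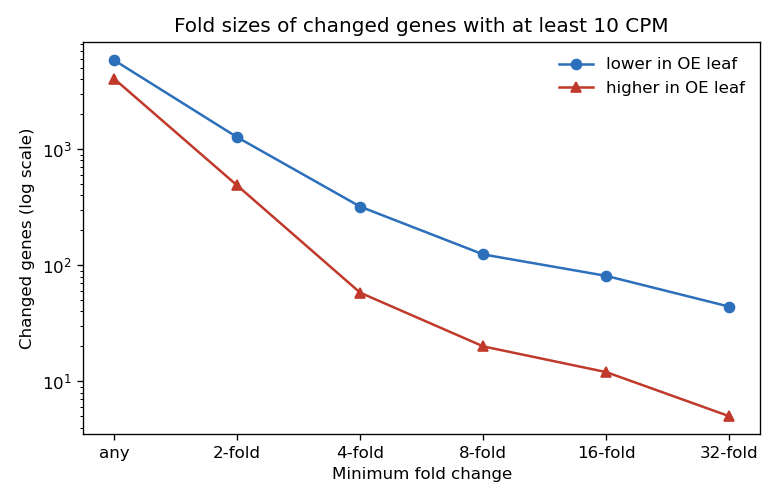
Number of changed genes (log scale) at or beyond each minimum fold change, among the 18164 genes tested with at least 10 CPM in a genotype and a count in both, for genes lower (blue circles) and higher (red triangles) in OE leaf. The blue line stays above the red one at every size under TMM scaling, 1269 against 487 genes at 2-fold and 44 against 5 at 32-fold, while total-count scaling turns the order at 2-fold and below.

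The largest changes among genes with a count in every leaf library were in genes without a matched name, for which no role is given. Glyma.19G098500 (chromosome 19, 34393327 to 34396049) had 9376 to 10626 counts per WT leaf library and 50, 31 and 33 in OE leaf, 348-fold lower. Glyma.20G008300 (chromosome 20, 760360 to 761339) went from 525, 433 and 437 counts to 2, 1 and 2, 345-fold lower. Among rises, Glyma.08G158200 (chromosome 8) went from 3, 2 and 3 counts to 308, 347 and 289, and Glyma.18G226300 (chromosome 18, 51471540 to 51498344) from 9, 1 and 5 to 467, 402 and 419, 64.2-fold higher, or 106-fold without WT leaf replicate 1.

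Some genes were detected in the leaf of a single genotype. There were 15 genes with 0 counts in all OE leaf libraries and at least 30 in each WT leaf library, and 3 with the reverse. The widest such gap was that of Glyma.18G103500, at 280.1 CPM in WT leaf and at least 1490-fold lower in OE leaf against a floor of 3 counts per library. The 3 genes of the reverse kind were Glyma.08G261500, Glyma.08G273000 and Glyma.18G235700, higher in OE leaf by at least 28.9-fold for the first and at least 13.5-fold for the last. Of the 15 genes, 2 also had no count in OE root, and of the 3 genes, 2 had none in WT root.

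Changed genes lay on all chromosomes. The share of genes tested that was higher in OE leaf ran from 17.4% to 19.7% over the 20 chromosomes, and the share that was lower from 19.6% (chromosome 5) to 24.4% (chromosome 8). At least 4-fold falls ranged more widely, from 1.85% of genes tested on chromosome 4 to 3.76% on chromosome 18, and 4-fold rises from 0.776% to 1.6% on the same chromosomes. Exons summed to a median of 2122.5 bp in the genes higher in OE leaf, 1734 bp in those lower and 1825 bp in the rest. Under TMM scaling, genes detected in leaf and hardly in root were more often lower than higher. Among 1028 genes of at least 1 CPM in leaf that stayed under 0.1 CPM in root, 36% were lower and 20.6% higher. Their median log2FC of -0.19 was smaller than the shift of 0.38 that total-count scaling brought. At 0.1 to 1 CPM in root 33% were lower and 15.4% higher, and at 1 to 10 CPM 20.4% and 18.9%. Among 15807 genes over 10 CPM in root, 26.3% were lower and 22.9% higher.

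Published soybean names were then used to describe the change by function. The lists were chosen with earlier results of these data known, so their counts describe these genes and are no independent support. Of 140 names that could be matched, 114 belonged to genes tested that had leaf counts. Of these 28 rose, 38 fell and 48 did not pass, against 18.3% higher and 22.1% lower among all genes tested. Their median log2FC was -0.10, where that of all genes tested was 0. Total-count scaling turned the balance of the listed genes, to 53 higher and 24 lower. The shares of all genes tested, 18.3% higher and 22.1% lower, are the background for each list that follows.

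In the photosynthesis list the called genes moved 1 way, with 6 of 8 genes lower, 0 higher and a median log2FC of -0.77. Over all genes tested 22.1% were lower and 18.3% higher. Of the 100 most abundant leaf genes 89 were lower, with a median of -0.79, so the list is not set apart from abundant leaf genes at large. Of the 4 members named by the stricter match, 3 were lower. The 4 activase genes all fell, RCABETA by 0.89 (SE 0.0846), RCAALPHA by 0.78 (SE 0.104), RCA11 by 0.76 (SE 0.0983) and RCA14 by 0.64 (SE 0.084) on the log2 scale. RCABETA stood at 12500, 13060 and 11520 CPM in OE leaf and at 21310, 24500 and 22690 in WT leaf, 1.85-fold lower. RBCS1 stood at 10130, 10600 and 9707 CPM against 17680, 19380 and 18060, 1.81-fold lower (edgeR adjusted p = 1.87e-08). RBCS2 fell by 1.07 (SE 0.107) and was the most variable of these genes, at 5632 to 7608 CPM in OE leaf against 12220 to 15630. The chlorophyll a/b-binding genes with a matched name did not pass the test. Their log2FC was -0.10 (SE 0.127, edgeR adjusted p = 0.593) for CAB3 and -0.18 (SE 0.0907, edgeR adjusted p = 0.104) for Glyma.08G082900. The 6 falls were smaller with total-count scaling, between -0.26 for RCA14 and -0.68 for RBCS2, and remained past the threshold. The recorded counting command does not ask for reads that map to several places, and how many such reads the RCA and RBCS genes have was not measured.

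Nitrogen and carbon enzymes followed in part. GS2, the plastid glutamine synthetase gene whose enzyme takes up ammonium in green leaves, stood at 1637, 1451 and 1431 CPM in OE leaf and 2545, 2305 and 2531 in WT leaf, a 1.63-fold fall with edgeR adjusted p = 2.28e-08. Another glutamine synthetase gene, Glyma.18G041100, rose from 14.21 ± 1.07 to 31.08 ± 2.41 CPM (SD, n = 3), 2.19-fold, and Glyma.11G215500, of the same family, had log2FC 0.06. The sucrose synthase gene SS fell from 19.15 ± 2.9 to 10.83 ± 3.05 CPM, 1.78-fold. AOX1, which encodes the alternative oxidase of mitochondrial respiration, stood at 2.71, 3.17 and 3.66 CPM in OE leaf and 13.3, 13.6 and 15.2 in WT leaf, a 4.42-fold fall with edgeR adjusted p = 9.14e-12. In all 3 of the list's 5 genes fell and 1 rose.

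Lipoxygenase and vegetative storage protein genes fell without exception among the 6 with leaf counts, with a median log2FC of -2.21. Lipoxygenases oxidise polyunsaturated fatty acids, and the vegetative storage proteins hold nitrogen in leaves. The most abundant of them, lox8 (Glyma.15G026500, chromosome 15, 2142191 to 2147489), stood at 1238, 1100 and 1125 CPM in OE leaf and 4620, 4120 and 4384 in WT leaf. It fell 3.79-fold, with edgeR adjusted p = 7.8e-19 and SE 0.0836 on the log2 scale. Its share of leaf counts fell by 0.193 points, the seventh largest loss of all genes. LOX4 stood at 471 to 511.9 CPM against 1958 to 2187, LOX7 at 14.2 to 15.1 against 69.8 to 74.8, and LOX10 at 1.02 to 1.73 against 29.4 to 32.8. VSPA, at 183.6 to 211.3 against 940.3 to 1079 CPM, fell 5.08-fold and VSPB, at 17.9 to 28.9 against 46.9 to 69.4 CPM, fell 2.72-fold. The genotypes did not overlap in any of the 6 genes, as was so for 47% of all genes tested. The seed lipoxygenase gene LOX3 and the trypsin inhibitor gene KTI1 were too low to be tested, and LOX1.4 had 0 counts in leaf.

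**Figure D4:**
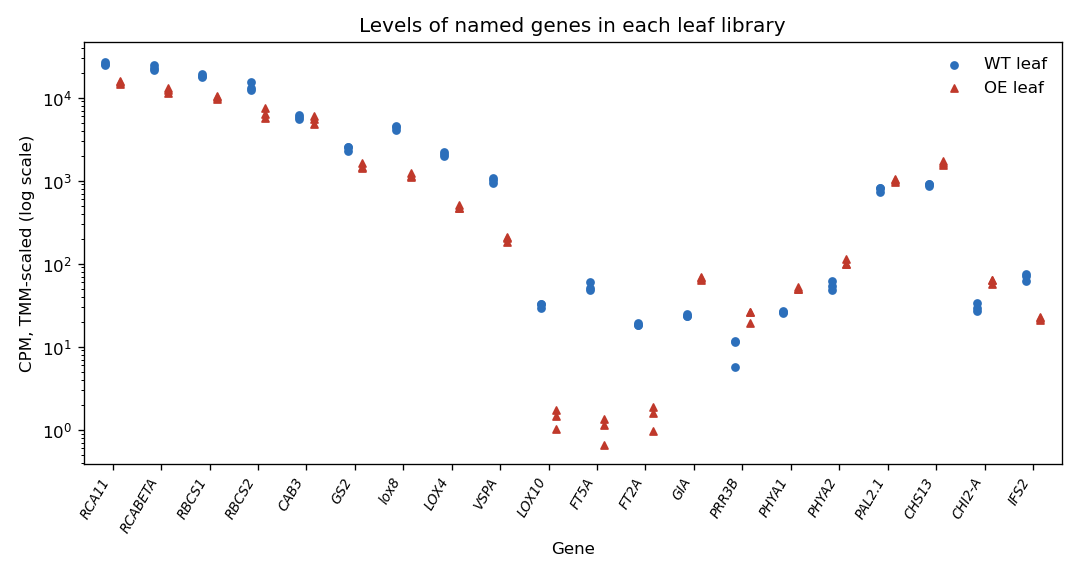
Levels of 20 named genes in CPM on TMM-scaled library sizes (log scale), with a point for each of the 3 WT leaf (blue circles) and 3 OE leaf (red triangles) libraries. The groups are apart in every gene shown except CAB3, whose OE leaf libraries (4848 to 6002 CPM) overlap those of WT leaf (5553 to 6253 CPM). The genes shown were picked with earlier results of these data known, and the groups were apart in 47% of all genes tested.

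Light receptor genes moved the other way, with 6 of 8 higher in OE leaf, 0 lower and a median log2FC of 0.47. Among all genes tested 18.3% were higher. With total-count scaling 7 of the list were higher and 0 lower, where 15977 of all genes tested were higher and 3960 lower. They stayed at modest levels. PHYA1 and PHYA2, which encode red and far-red light receptors of the phytochrome A type, stood at 52.0, 49.4 and 48.9 CPM and at 114, 100.1 and 100.3 CPM in OE leaf, against 26.4, 26.8 and 25.4 CPM and 61.2, 48.2 and 53.5 CPM in WT leaf. PHYB, the main red light receptor of green plants, rose 1.41-fold from 22.97 ± 1.16 to 32.41 ± 2.09 CPM (edgeR adjusted p = 0.000188). Among the blue light receptor genes, CRY2c rose by 0.62 (SE 0.0842), CRY2a1 by 0.45 (SE 0.0833) and CRY1b1 by 0.41 (SE 0.101) on the log2 scale. PHYA3 (-0.15) and CRY1A (0.30, edgeR adjusted p = 0.0886) did not pass.

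Of 12 clock genes 2 rose, 2 fell and 8 did not pass, while total-count scaling gave 7 higher and 0 lower. GIA, a soybean GIGANTEA gene, rose 2.78-fold, at 63.9, 66.8 and 68.8 CPM in OE leaf and 23.6, 23.2 and 24.8 in WT leaf. PRR3B, a pseudo-response regulator gene, stood at 26.2, 19.1 and 26.3 CPM against 11.4, 5.74 and 11.9, with WT leaf replicate 2 lowest. The falls, of LHY1A and LHY2B, were small (log2FC -0.27 and -0.20) and turned to 0.12 and 0.18 with total-count scaling. That of LHY2B also ended when 1 of 4 single libraries was left out (edgeR adjusted p up to 0.175, without OE leaf replicate 2). TOC1, ELF3A, ELF3B and the others did not pass. The hour of harvest is not given in the labels, and its part in the clock genes was not tested.

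Of 7 flowering genes with leaf counts 5 fell and 0 rose, with a median log2FC of -1.57. With total-count scaling 2 were lower and 1 higher, and the falls of COL1A, E1 and FULa were no longer called. The florigen genes FT5A and FT2A, whose products carry the flowering signal from leaf to shoot tip, stood at 0.662, 1.34 and 1.13 CPM and at 0.963, 1.58 and 1.87 CPM in OE leaf, against 51.0, 60.5 and 47.6 CPM and 19.4, 18.1 and 18.2 CPM in WT leaf. COL1A, a CONSTANS-like gene, fell from 390 ± 14.5 to 286.4 ± 17.3 CPM, a log2FC of -0.45 that came to -0.06 with total-count scaling. The florigen repressor gene E1 fell on 23 counts in OE leaf and 52 in WT leaf in all (edgeR adjusted p = 0.023), and FULa, a floral MADS gene, on 1 and 9 counts. Total-count scaling gave E1 an adjusted p of 0.0689 and FULa 0.0571. Both calls ended when single libraries were left out. For E1 these were replicates 2 and 3 of OE leaf and replicates 1 and 3 of WT leaf, with adjusted p up to 0.0917. For FULa they were replicates 1 and 3 of OE leaf and replicate 2 of WT leaf, with adjusted p up to 0.457.

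**Figure D5:**
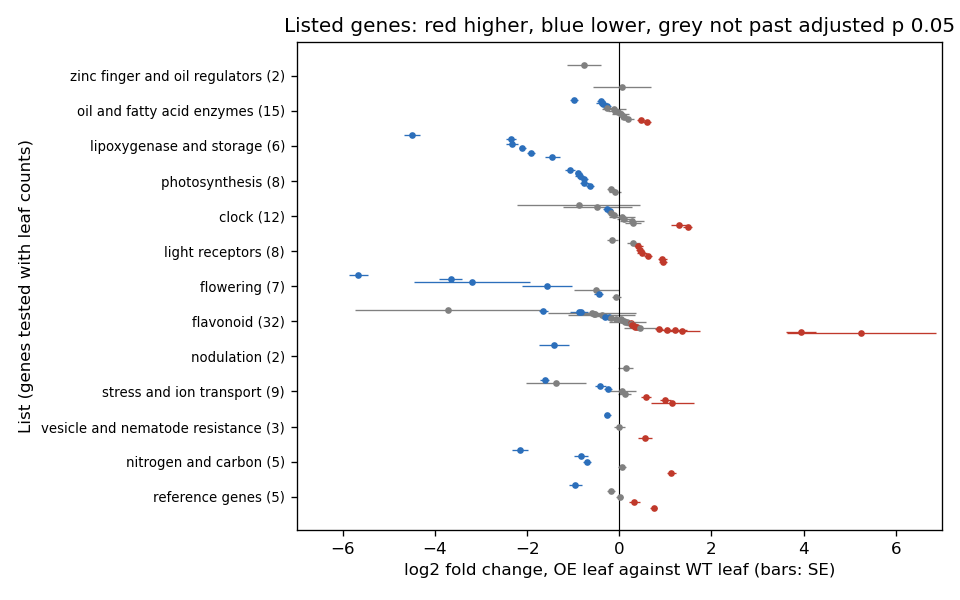
log2 fold change of OE leaf against WT leaf for each listed gene tested with leaf counts, by list, with bars for the SE. Red points are higher, blue points lower and grey points not past adjusted p 0.05. The 6 lipoxygenase and storage genes all lie left of 0, and the 6 called light receptor genes all lie right of it.

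Flavonoid genes divided, with 11 of 32 higher in OE leaf, 5 lower, 16 not past the test and a median log2FC of 0.10. With total-count scaling 19 were higher and 3 lower. The 11 rises include CHS11, on 12 counts in OE leaf and 0 in WT leaf. They also include F3H2 (log2FC 0.26), whose call ended with DESeq2 (Wald test adjusted p = 0.0518). Rises stood at several steps from phenylalanine to the flavonoids. At the entry, the phenylalanine ammonia-lyase genes PAL3.1, PAL2.1 and PAL2.2 rose. PAL2.3 (log2FC 0.04), PAL1.3 (-0.18) and PAL1.2 (-0.54) did not pass, and PAL1.1 fell. PAL3.1 went from 0.165, 0.656 and 0.33 CPM to 4.93, 7.49 and 5.53, 15.3-fold, or 23.6-fold without WT leaf replicate 2. The far more abundant PAL2.1 rose 1.3-fold, from 783.5 ± 43.7 to 1020 ± 43.5 CPM. At the first committed step, the chalcone synthase gene CHS13 (Glyma.19G105100, chromosome 19, 35466392 to 35469297) stood at 1640, 1703 and 1542 CPM in OE leaf and 859.7, 911.6 and 909.2 in WT leaf, 1.82-fold higher (log2FC 0.87, SE 0.0835, edgeR adjusted p = 3.06e-10).

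At the next steps some members rose and others did not. The chalcone isomerase gene CHI2-A rose 2.05-fold, from 30.02 ± 3.57 to 61.62 ± 4.49 CPM. The more abundant CHI4A, of the same family, stood at 96.55 CPM in OE leaf and 94.64 in WT leaf (log2FC 0.03). CHI4A, CHI3A1 (-0.34) and CHI1B2 (0.46) did not pass. DFR2 and W1, which encode dihydroflavonol reductase and flavonoid 3',5'-hydroxylase of pigment synthesis, rose 2.31- and 2.57-fold, to 8.64 ± 1.7 and 3.6 ± 0.716 CPM in OE leaf, with 3.73 ± 0.504 and 1.4 ± 0.708 CPM in WT leaf (SD, n = 3). The falls included IFS2, an isoflavone synthase gene, at 23.1, 21.1 and 22.4 CPM against 71.7, 62.7 and 74.5, and PAL1.1, which fell by 0.84 (SE 0.092) on the log2 scale. Another chalcone synthase gene, CHS10, fell from 8.31 ± 0.208 to 4.57 ± 1.8 CPM (SD, n = 3; log2FC -0.87, edgeR adjusted p = 0.000729). The related copies IFS1 (0.12), CHS7 (0.27) and CHS8 (0.09) did not pass, and reads that map to several copies may be missing from these counts. C4H and 4CL1, early enzymes of the phenylpropanoid path, fell by 0.23 and 0.32, and turned to 0.16 and 0.06 with total-count scaling. Their calls ended without OE leaf replicate 3, that of C4H also without WT leaf replicate 1 or 3 (adjusted p up to 0.151).

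Among fatty acid enzyme genes 2 of 15 were higher, 5 lower and 8 not past the test, with a median log2FC of -0.09. Over all genes tested 40.4% were changed. With total-count scaling 6 were higher and 1 lower. KASII-B, a gene of the condensing enzyme that extends palmitate to stearate in plastids, stood at 84.6, 79.0 and 74.9 CPM in OE leaf and 165.2, 147.2 and 158.5 in WT leaf, a 1.97-fold fall with edgeR adjusted p = 1.9e-11. Its copy KASII-A fell 1.32-fold, a call that ended with total-count scaling (log2FC -0.01). FATB1A, a thioesterase gene, and FAD2-2B, an oleate desaturase gene, rose by 0.61 and 0.46. The acyltransferase genes of oil assembly DGAT1A, DGAT1B, DGAT1C and DGAT2D lay between -0.12 and 0.18 and did not pass. Of the oil regulators, WRI1A (33 counts in OE leaf and 43 in WT leaf) and WRI1B (18 and 13) did not pass, and LEC1A, LEC1B, ABI3-1, ABI3-2 and the oil body gene OLEO1 had 0 leaf counts.

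Of 9 stress and ion transport genes 3 rose and 3 fell, while total-count scaling gave 4 higher and 1 lower. FERRITIN, the iron storage protein gene, stood at 68.1, 84.9 and 72.1 CPM in OE leaf and 209.9, 270.4 and 211.9 in WT leaf, a 3.08-fold fall with edgeR adjusted p = 5.1e-14. HSP17.5-M, a small heat shock protein gene, rose 2-fold from 17.99 ± 2.92 to 36.02 ± 2.26 CPM, and P5CS, of proline synthesis, rose 1.49-fold from 34.68 ± 1.34 to 51.65 ± 3.43. The third rise, of WRKY21, ended without any library other than WT leaf replicate 2 (adjusted p up to 0.221). The falls of the sodium transport genes SOS1 and NHX1 were small (log2FC -0.42 and -0.25). They did not hold with total-count scaling (-0.03 and 0.14) or without OE leaf replicate 2, and that of NHX1 also not without OE leaf replicate 3 or WT leaf replicate 2.

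Of 5 genes often used to scale measurements of other genes, 2 rose, 1 fell and 2 did not pass. Among all genes tested 18.3% were higher and 22.1% lower. UBI3, CYP2 and ELF1B were named by a looser match alone, and of the 2 members named by the stricter match 0 passed. UBI3 rose 1.67-fold, at 1400, 1344 and 1262 CPM in OE leaf and 878.2, 717.1 and 798.3 in WT leaf (edgeR adjusted p = 1.05e-08). CYP2 was 1.94-fold lower, at 175.4 ± 20.2 CPM in OE leaf against 340.9 ± 19.1 (SD, n = 3). ELF1B rose by 0.33, a call that ended when any single leaf library other than OE leaf replicate 1 or WT leaf replicate 3 was left out (adjusted p up to 0.208). The call of ELF1B also ended with DESeq2 (Wald test adjusted p = 0.0856). ACTIN (-0.17) and TUBB3 (0.01) did not pass. With total-count scaling 4 of the 5 were higher and 1 lower, where 15977 of all genes tested were higher and 3960 lower. UBI3 then stood at 1.12 and CYP2 at -0.58, so both directions held. Of the 2 nodulation genes with leaf counts, NSP2 fell 2.68-fold from 2.58 ± 0.258 to 0.964 ± 0.314 CPM, and NARK did not pass. Among the alpha-SNAP genes of vesicle fusion, SNAP09 rose by 0.56, SNAP18 fell by 0.26, a fall that turned to 0.12 with total-count scaling and ended without OE leaf replicate 3, and SNAP11 did not pass.

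The leaf change was not a copy of the root change in the same line. The difference of the leaf and root effects, tested in the same model, passed for 8198 of 35968 genes (22.8%) and for 52 of the 114 listed genes. Rubisco activase gene RCABETA was at 1.21 CPM in WT root, so its leaf fall has no counterpart of like level there. LOX10 fell 22.6-fold in leaf and had log2FC -0.09 in root (adjusted p of the difference 3.73e-16). The lox8 gene fell by 1.92 in leaf and by 1.87 in root, and the difference did not pass (edgeR adjusted p = 0.822).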

How the data were processed

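Per the file headers, the authors ran featureCounts v2.0.1 in paired-end mode, with annotation Wm82.a2.v1 and no strand, multi-mapping or multi-overlap option, and deposited the raw count of each gene model. No source used here names the aligner. Antisense partners cannot be told apart, and under these options reads that map to several places are not counted where the alignments mark them. All deposited sample columns were matched to labels.

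All 12 libraries (leaf and root) were fitted with edgeR 4.0.16 under R 4.3.3, using TMM scaling, filterByExpr, 1 coefficient per group, robust quasi-likelihood F test, Benjamini-Hochberg adjustment over 35968 genes (99.953% of leaf counts). The spread thus pools root with leaf libraries, with 8 residual degrees of freedom. SE is the absolute log2FC over the root of F. DESeq2 1.42.0, other scalings and filters, leaf-only fits and leaving out each library were alternatives. Share tests are exact permutations. Intervals and floors of 3 counts cover counting error only. Leaf counts of 35622 genes were simulated with 50 genes changed at each fold size. The fit found 10% of the genes changed 1.25-fold, 64% of those changed 1.5-fold, 88% of those changed 2-fold and 98% of those changed 4-fold. Of its 136 calls 6 were false. Far fewer genes were changed there than the 14544 called in the data, so these rates may not carry over.

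The gene groups and the named members were chosen with earlier results of these data known. Of 231 published names written from general knowledge, 216 had an identifier in the table and 140 were matched to the RefSeq table of assembly Glycine_max_v4.0, which shares no identifier with the counts. A match needed the same chromosome, a single candidate by symbol or synonym, a genomic span within 10% and a position within 6 Mb. A looser rule (35%, 2 Mb), added after values of abundant genes were seen, gave 21 of them, among them RBCS1, RCABETA, RCAALPHA, Glyma.08G082900, CRY2c, CHI2-A, AOX1, NSP2, HSP17.5-M, CYP2, ELF1B and UBI3. The name GmZF351 comes from the labels, and its identifier Glyma.06G290100 was written from general knowledge without a match in the RefSeq table. Genes named in the text were GmZF351, the listed genes with the largest changes or a defining role, the 10 most abundant genes, the 5 with the largest loss and gain of share, and the 2 largest rises and falls at 10 CPM or more.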

Additional observations from a re-analysis of the deposited data

Results flagged for a closer look

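For 9 listed genes the leaf and root effects were both called and pointed in opposite directions, and edgeR's test of the difference passed for each. AOX1 had log2FC -2.15 in leaf and 0.93 in root, a difference of -3.08 (SE 0.238, adjusted p = 8.17e-12). CHI2-A had 1.04 and -1.10, a difference of 2.13 (SE 0.41, adjusted p = 0.000207), on root levels of 0.383 and 0.824 CPM. NSP2 had -1.42 and 0.49, a difference of -1.91 (SE 0.379). The glutamine synthetase gene Glyma.18G041100 had 1.13 and -0.30, a difference of 1.43 (SE 0.127). P5CS had 0.57 in leaf and -0.43 in root, a difference of 1.0 (SE 0.176). PAL2.2 differed by 0.707 (SE 0.112) and MYB176 by 0.517 (SE 0.116), both higher in OE leaf and lower in OE root. LHY2B differed by -0.966 (SE 0.113) and LHY1A by -0.665 (SE 0.111), both lower in OE leaf and higher in OE root. The leaf falls of LHY1A and LHY2B depend on the scaling. Groups of 3 libraries were too small to be searched for single outlying samples.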

How the results depend on the processing

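The count of changed genes stayed within 1.5 times of 14544 in every alternative, from 12794 to 13857 without single libraries and up to 19937 with total-count scaling. That scaling moved the counts by direction to 15977 higher and 3960 lower. In a fit of the 6 leaf libraries alone, at least 2-fold changes numbered 1581 higher and 2214 lower, in place of 1759 and 2670. The difference in share of the 100 most abundant genes moved from -5.85 points to -6.5 ranked on WT leaf, -4.32 ranked on OE leaf and -4.89 per kilobase of exon. For the 1000 most abundant genes it moved from -8.2 to -9.64, -6.41 and -7.51 in the same order, and for the 10 most abundant from -1.86 to -1.51 per kilobase. Ranking per kilobase was chosen after seeing the data. Without single libraries the 3 differences lay between -2.02 and -1.68, -6.14 and -5.62, and -8.62 and -7.98 points.

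Of 88 named genes called, 8 turned direction with total-count scaling: SACPD (0.12), FAD3C (0.0336), LHY1A (0.12), LHY2B (0.18), C4H (0.16), 4CL1 (0.0604), NHX1 (0.14) and SNAP18 (0.12). Another 8 lost the call there. Leaving out single libraries ended 15 calls, also those of SACPD, FAD3A, F3H2, SOS1, NHX1, SNAP18, ELF1B, Glyma.14G115500 and Glyma.17G069100 beside those in the text. Names of the first matching rule alone, an alternative added later, gave 54 changed genes in place of 66.

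Whether the replicate numbers pair the libraries is not stated in the labels and is not settled here. Deviations of same-numbered leaf libraries correlated at 0.072, 0.12 and -0.029, and those of differently numbered ones at -0.13 to 0.054. With a replicate block on the 6 leaf libraries 14367 of 31110 genes were changed, against 13941 without it.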
